A study of Mus musculus with 3 samples.

Results

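In the endothelium of the mouse small intestine, 5 peptide genes were followed, 4 that encode secreted peptide hormones (Nts, Nppc, Edn1 and Stc1) and 1 that encodes a peptide-activating enzyme (Ece1).
They were chosen by name and are 5 of the 32285 genes in the count matrices. The choice rested on their levels in gated cell classes, and within lymphatic endothelial cells (LEC) on the share of positive cells, on detection of pairs in the same cell and on level by Fos share. Those values are therefore given as a description, with no test. Single-cell RNA-seq libraries 1, 2 and 3 were prepared from intestine without the duodenum of wild-type C57Bl/6 females aged 9 to 10 weeks, with 4 animals pooled for each. Epithelium was first stripped with EDTA and DTT, and the remaining tissue was digested with Liberase TL and DNase I for 60 min at 37 °C. Live cells were sorted that carried CD31 and podoplanin but no CD45. There was no treated or mutant group, so comparisons lie between cell classes and cell states within each library.

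Peptide hormones are made as longer precursors, cut by proteases and released to act on receptors of nearby or distant cells. Neurotensin, the product of Nts, is best known from enteroendocrine cells of the ileum, where it is released by dietary fat. C-type natriuretic peptide, the product of Nppc, acts through the guanylyl cyclase receptor Npr2. Endothelin 1, the product of Edn1, is a vasoconstrictor that endothelin converting enzyme 1, the product of Ece1, cuts from its inactive precursor. Stanniocalcin 1, the product of Stc1, is a secreted glycoprotein that inhibits pappalysin proteases.

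The 3 libraries held 24541 barcodes, of which 22534 had at least 500 genes and at most 15% mitochondrial unique molecular identifiers (UMIs). LEC, gated on at least 1 UMI of Prox1, the transcription factor of lymphatic identity, and at least 5 UMIs of the hyaluronan receptor Lyve1, were 18954 cells, or 89.5%, 74.6% and 87.3% of the cells of libraries 1, 2 and 3. Their median depth was 8149, 7217 and 6805.5 UMIs. Of 5 further lymphatic markers, Flt4, Reln, Ccl21a and Pdpn were highest in LEC and Mmrn1 was listed at 0 in every class. Blood endothelial cells (BEC), gated on Plvap, numbered 36, 64 and 36, and all 5 of their check markers were highest in them. These BEC passed a sort for CD31 and podoplanin, so their makeup is not that of blood endothelium as a whole. Of 5 epithelial check markers only Vil1 was highest in epithelial cells, and Krt8, Krt20, Cdh1 and Fabp2 were highest in enteroendocrine cells. Of 6 enteroendocrine check markers 5 were highest in that class, while Tph1 had 0 UMIs there. Library 2 stood apart by its epithelial share, 5.16% against 1.64% in library 1 and 0.940% in library 3, and by 235 of the 399 LEC that also met the gate of another class. Pairs of libraries shared 13 to 23 cell barcodes, at most 0.343% of a library. Levels are given in CPM, the UMIs of a gene for each 1000000 UMIs of a class, with mean ± SD over the 3 libraries. The p-values set differences between classes or states against their spread among these 3 libraries, with each gene's variance moderated over all tested genes. In the comparisons by Ptgs2 and by proliferation, with the library as a block, the moderation was nearly complete. Those p-values rest on variance pooled over genes, and a gene's own agreement among the libraries counted for little. Where the library was not made a block, the p-values also take in the spread of levels among libraries. Nothing in the labels says whether that spread is biological.

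Nts marked LEC among the endothelial classes. Its level in LEC was 82.2 CPM in library 1, 82.9 in library 2 and 99.3 in library 3, or 88.1 ± 9.70 CPM (SD, n = 3), from 13762 UMIs. BEC had 0, 1.98 and 5.48 CPM, from 2 UMIs in all. LEC were high and BEC at or near 0 in every library, with no overlap. The pooled LEC level was 40.8 times the BEC level, with a 95% interval of 11.3 to 337 that covers counting error only. Fibroblasts had 0.945 ± 0.943 CPM. The 539 epithelial cells had 9.08, 0.601 and 1.38 CPM, and 27 of the 31 UMIs in library 1 were in 1 cell. The 31 enteroendocrine cells held 477 Nts UMIs, of which 476 were in 1 cell of library 2, while those of libraries 1 and 3 had none. With that few cells, the level of enteroendocrine cells could not be set against that of LEC.

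Nppc was found in LEC and, at this depth, not in BEC. LEC had 50.2 CPM in library 1, 51.3 in library 2 and 75.7 in library 3, or 59.1 ± 14.4 CPM. BEC had 0 UMIs in all 3 libraries, so that the pooled LEC level was at least 18.5-fold higher, counted against 3 UMIs over all BEC. Library 3 was the highest for both Nppc and Nts. The 400 fibroblasts had 0, 3.80 and 4.71 CPM, and epithelial cells 0.198 ± 0.171 CPM. The pooled fibroblast value, 13 UMIs, was 5.81% of the LEC level. As a yardstick of free LEC RNA, Ccl21a, a chemokine made in bulk by LEC, was in fibroblasts at 1.32% of its LEC level and Reln, a secreted matrix protein of LEC, at 1.19%.

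**Figure D1:**
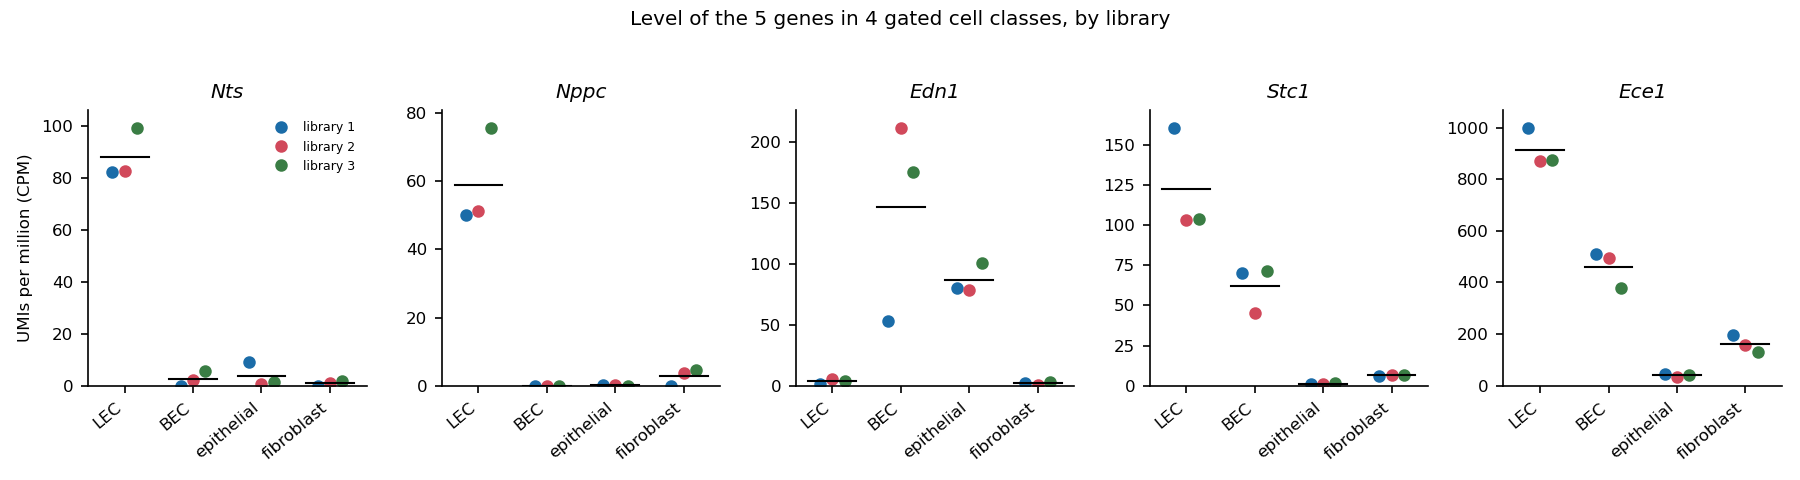
Level of each gene (vertical axis, CPM, linear and different for each gene) in LEC, BEC, epithelial cells and fibroblasts of libraries 1, 2 and 3 (points), with the mean over libraries as a line. Nts and Nppc stand in LEC and near 0 elsewhere, Edn1 stands in BEC and epithelial cells, and Stc1 and Ece1 are in both endothelial classes.

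The stretches upstream of Nts and Nppc are shown because both carried a match to the same cyclic-AMP response element-like letters. RefSeq promoter windows (GRCm38.p6, the mm10 build of the files) were at hand for 4 of the 5 genes. The sequences run 5′ to 3′ on the gene's strand over the 250 bases before the RefSeq start, and capitals mark motif matches. Nts is on chromosome 10 (gene 102481756 to 102490486, minus strand in GENCODE M21, whose gene model begins further upstream than the RefSeq start) and Nppc on chromosome 1 (gene 86666291 to 86670571, minus strand).
Nts, chr10:102490419-102490668, minus strand: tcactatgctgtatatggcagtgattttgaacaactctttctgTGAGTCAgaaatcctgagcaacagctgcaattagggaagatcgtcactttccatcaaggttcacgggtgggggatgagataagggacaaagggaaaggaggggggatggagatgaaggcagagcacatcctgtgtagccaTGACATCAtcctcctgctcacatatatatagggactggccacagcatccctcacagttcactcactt
Nppc, chr1:86670574-86670823, minus strand: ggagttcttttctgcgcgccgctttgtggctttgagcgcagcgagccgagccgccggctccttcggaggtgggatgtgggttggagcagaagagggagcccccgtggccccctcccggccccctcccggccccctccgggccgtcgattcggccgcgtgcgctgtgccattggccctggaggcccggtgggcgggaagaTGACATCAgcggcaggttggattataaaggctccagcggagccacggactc
The letters TGACNTCA, searched on both strands over 250 bases before to 50 after each start, matched as TGACATCA in Nts, beginning 67 bases before the start, and in Nppc, beginning 51 bases before it. This match is in 8.83% of 32851 RefSeq promoters. The letters TGANTCA, the AP-1 consensus bound by Fos and Jun, matched as TGAGTCA in Nts, beginning 207 bases before the start, and are in 7.81% of promoters. The motifs do not overlap here. Neither matched the windows of Edn1 or Ece1. TGACNTCA was chosen after these sequences had been seen.

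Edn1 had the reverse endothelial pattern and was shared with the epithelium. LEC had 1.53 CPM in library 1, 5.10 in library 2 and 3.92 in library 3, or 3.52 ± 1.82 CPM. BEC had 52.8, 212 and 175 CPM, or 147 ± 83.2 CPM, and epithelial cells 79.9, 78.8 and 100.5 CPM, or 86.4 ± 12.2 CPM. The ranges of BEC and epithelial cells overlapped, and both lay above LEC in every library. Fibroblasts had 1.74 ± 1.19 CPM, which overlapped the LEC range. The pooled LEC level was 0.0211 times that of BEC (interval 0.0176 to 0.0254, counting error only). Within BEC, the 32 cells with artery genes (Gja5, Gja4 or Sema3g) held 100 of the 151 UMIs, a pooled level of 461 CPM (interval 375 to 561). The 24 cells with vein or venule genes had 115 CPM (79.4 to 162) and the other 80 BEC had 43.7 CPM (25.9 to 69.0). This order did not hold in library 1, where artery-type BEC had 37.2 CPM on 2 UMIs, vein or venule BEC 41.1 CPM on 2 UMIs and the other BEC 64.1 CPM on 8 UMIs. Artery-type BEC had 579.7 CPM in library 2 (74 UMIs in 19 cells) and 674 CPM in library 3 (24 UMIs in 6 cells), so the pooled level rests on those libraries. Of all BEC, 1 cell held 22 of the 107 Edn1 UMIs of library 2, and 1 cell held 16 of the 32 of library 3. The intervals do not cover such spread among cells.

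The few LEC with Edn1 often carried genes of other classes. Edn1 was detected in 246 LEC, of which 50, or 20.3%, also met the gate of another class, against 1.87% of the 18708 LEC without it. Those 50 cells held 265 of the 536 Edn1 UMIs of LEC. Without cells that met another gate, LEC had 1.25, 2.06 and 2.27 CPM. In LEC thinned to 3000 UMIs, the 4 genes with the largest ratio of Edn1-positive to Edn1-negative cells were Ly6c1, Flt1, Nrp1 and Ly6a. Flt1, the VEGF receptor used here as a BEC check marker, was at 69.9 ± 46.9 CPM in 114 Edn1-positive LEC and at 1.98 ± 2.11 CPM in the rest. The part of mixed barcodes in the LEC level of Edn1 was not tested further. Edn1 lies on chromosome 13 (42301476 to 42307990, plus strand).

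Stc1 was in both endothelial classes. LEC had 161 CPM in library 1, 103 in library 2 and 104 in library 3, or 123 ± 33.0 CPM. BEC had 70.5, 45.5 and 71.2 CPM, or 62.4 ± 14.6 CPM, from 52 UMIs. LEC were above BEC in all 3 libraries, with a pooled ratio of 2.15 (interval 1.64 to 2.88, counting error only). The BEC level was 46.6% of the LEC level, while Ccl21a in BEC was at 1.498% and Reln at 0.827% of their LEC levels. Artery-type BEC had 161 CPM (112 to 224), and vein or venule BEC 10.5 CPM (2.16 to 30.7, on 3 UMIs). Fibroblasts, at 6.35 ± 0.485 CPM, and epithelial cells, at 1.08 ± 0.347 CPM, came next without overlap. Stc1 lies on chromosome 14 (69029238 to 69041804, plus strand).

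Ece1, the processing enzyme, was found in every class but scarcely in B or plasma cells, with LEC highest. LEC had 999 CPM in library 1, 871 in library 2 and 874 in library 3, or 915 ± 73.2 CPM, and BEC 511, 497 and 378 CPM, or 462 ± 72.9 CPM. The classes did not overlap, with a pooled LEC to BEC ratio of 1.92 (interval 1.75 to 2.11). Fibroblasts had 161 ± 32.5 CPM and epithelial cells 39.4 ± 5.44 CPM, with no overlap among these 4 classes. The 45 B or plasma cells held 1 UMI. Of the endothelial classes, the one with the higher Ece1 level thus had the lower Edn1 level. Ece1 lies on chromosome 4 (137862237 to 137965229, plus strand).

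The edges of the LEC gate were set side by side. Cells just inside on Lyve1 (5 or 6 UMIs, 284 cells) had pooled levels of 82.9 CPM for Nts, 34.4 for Nppc, 0.782 for Edn1, 85.2 for Stc1 and 681 for Ece1. Cells just outside (3 or 4 UMIs, 190 cells) had 100.4 CPM for Nts, 34.3 for Nppc, 1.22 for Edn1, 69.8 for Stc1 and 474 for Ece1. Their median depths were 3403 and 2299 UMIs. The 1657 cells with 1 Prox1 UMI had 86.4 CPM for Nts, 69.5 for Nppc, 3.45 for Edn1, 98.9 for Stc1 and 876 for Ece1. The 807 cells with no Prox1, outside the gate, had 111 CPM for Nts, 79.1 for Nppc, 7.58 for Edn1, 86.5 for Stc1 and 856 for Ece1.

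The genes whose levels over the 12 library and class sums (LEC, BEC, epithelial cells and fibroblasts) were most like each member are given by Pearson's r of log2(CPM + 1) over 9819 genes, as a description. These 12 sums share 3 libraries and 4 classes. For Nppc they were 1810008I18Rik (r = 0.99), the guidance ligand Sema3a (0.98) and the ligand Wnt2 (0.97), all at 0 in BEC. For Stc1 they were Snrk, Dock9 and the transcription factor Lmo2 (0.99 to 1.00). For Ece1 they included She and the transcription factor Meox1 (each 0.99). For Nts the values were lower, with Cpne2, Glod4 and the histone chaperone Hjurp (0.94 to 0.96). For Edn1 they were the translation factor Eif2s2, the RNA-binding protein Ybx1 and the integrin Itgb4 (0.97 to 0.98).

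The hormones differed in how their RNA was spread over LEC. After thinning to 3000 UMIs, Nts was detected in 6.73%, 6.18% and 7.11% of LEC of libraries 1, 2 and 3. The 1% of LEC with the most Nts held 52.6% ± 3.34 of its UMIs and the top 5% held 93.8% ± 1.39. Single LEC reached 34, 49 and 42 thinned UMIs, and 37, 38 and 68 cells had at least 10. Its Fano factor, the variance over the mean of UMIs per cell, was 9.05, 11.1 and 10.4. That ranked 1st, 14th and 2nd of 1811, 1724 and 1516 genes within 1.5-fold of its mean level, whose medians were 1.059 to 1.060. Nts RNA was thus held by a small group of LEC in all 3 libraries.

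Nppc was detected in 8.95%, 9.99% and 12.2% of thinned LEC, with 34.3% ± 3.79 of its UMIs in the top 1% of cells and 72.0% ± 2.49 in the top 5%. Stc1 was detected in 28.8%, 22.4% and 19.7%, with 14.7% ± 1.56 of its UMIs in the top 1%. Edn1 was detected in 0.362%, 0.780% and 0.692%. Ece1 was detected in 93.0%, 91.0% and 91.4%, with 3.31% ± 0.0592 in the top 1% and a Fano factor of 1.29 ± 0.0506. Such shares also depend on a gene's mean level. Among genes of like level, the Fano factor of Nppc ranked 7th of 2263, 32nd of 2110 and 10th of 1765 in libraries 1, 2 and 3. That of Stc1 ranked 23rd of 1044, 43rd of 1375 and 21st of 1464, and that of Ece1 86th of 129, 66th of 109 and 100th of 133. In BEC, whose median depth was 5382.5 UMIs, 1 of 124 thinned cells had Nts and none had Nppc. With all UMIs counted, 9.99% of LEC had Nts.

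**Figure D2:**
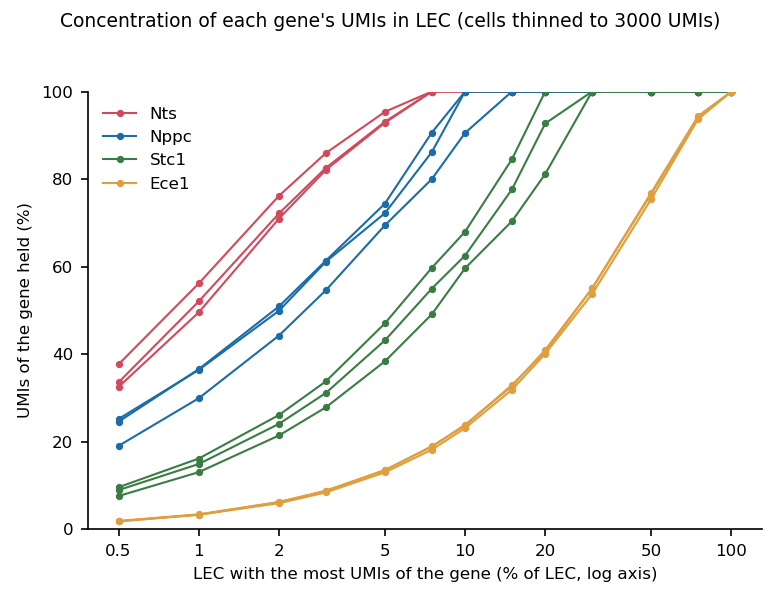
Share of a gene's UMIs in LEC (vertical axis, percent) held by the cells with the most of it (horizontal axis, percent of LEC, log axis), cells thinned to 3000 UMIs, 1 line per library. Nts is the most concentrated, Nppc and Stc1 follow, and Ece1 is spread over nearly all LEC. The genes differ in mean level, on which this share also depends. Edn1 is left out for its few UMIs.

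Most LEC had none of the 4 hormones after thinning. None was detected in 60.7%, 65.2% and 65.2% of LEC of libraries 1, 2 and 3, 1 in 34.1%, 30.4% and 30.1%, 2 in 5.04%, 4.19% and 4.52%, and 3 in 12, 9 and 16 cells. Nts and Nppc were found together in 167 cells against 133.7 expected from their shares within libraries, a ratio of 1.05, 1.26 and 1.34 in libraries 1, 2 and 3. Nts with Stc1 had a mean ratio of 1.06 ± 0.0165 and Nppc with Stc1 1.04 ± 0.0781. Edn1 and Stc1 were found together in 7 cells against 25.3 expected, with ratios of 0.521, 0.117 and 0.272. With all UMIs counted the mean ratio of that pair was 0.695 ± 0.217. Pairs of Edn1 with Nts or Nppc had under 7 expected cells in each library. The remaining pairs, all with Ece1, had mean ratios from 0.988 to 1.03. Ece1 was in 93.0%, 91.0% and 91.4% of these cells, so ratios with it could rise little above 1 and say little of these pairs.

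LEC with a given hormone also differed in other genes, ranked by the ratio of their level in thinned cells with and without the hormone. For Nts the leading genes were the stress cytokine Gdf15 (43.1 ± 19.9 against 20.5 ± 5.53 CPM), the protein C receptor Procr, the prostaglandin transporter Slco2a1, the adhesion molecule Selp and the metallothionein Mt1. For Nppc they were Selp (88.6 ± 17.6 against 41.1 ± 1.77 CPM), Gadd45g, Procr, Sbno2 and the chemokine Cxcl9. Selp and Procr thus stood in both sets. For Stc1 they were the chemokine Ccl2 (214 ± 39.4 against 86.3 ± 7.24 CPM), the prostaglandin synthase Ptgs2, Egr4, the cytokine Lif and Prag1. The ratios of the leading 5 were 1.74 to 2.10 for Nts, 1.65 to 2.16 for Nppc and 1.93 to 2.48 for Stc1. The lowest single-library ratio among them was 1.00, for Mt1.

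Hormone levels differed along the Fos axis. Fos is an immediate early gene that responds quickly to many stimuli. LEC of each library were put in 4 equal groups by their Fos share of UMIs. In Fos groups 1 (lowest), 2, 3 and 4 (highest), Nts had 22.6 ± 9.87, 65.5 ± 13.2, 115 ± 14.7 and 142 ± 32.6 CPM. Group 1 had 34.0, 17.4 and 16.3 CPM in libraries 1, 2 and 3, and group 4 had 119.8, 127 and 179 CPM. Group 4 was above group 1 in every library, by 3.53, 7.25 and 10.98 times. The share of LEC with any Nts differed less, with 7.87%, 4.24% and 5.32% in group 1 and 11.3%, 9.36% and 12.5% in group 4.

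Nppc had 29.6, 23.3 and 29.7 CPM in group 1 of libraries 1, 2 and 3, and 54.1, 66.8 and 81.9 CPM in group 4. Its mean was highest in group 3, at 74.0 ± 12.8 CPM. Stc1 had 103.8, 54.8 and 67.5 CPM in group 1, and 180.2, 142 and 120.1 CPM in group 4. The ratio of group 4 to group 1 was 2.48 ± 0.573 for Nppc and 2.03 ± 0.481 for Stc1, above 1 in all 3 libraries. Ece1 had 1129.6, 1037 and 1000.5 CPM in group 1 and 934, 881 and 819 CPM in group 4, a ratio of 0.832 ± 0.0159. Edn1, with 136, 239, 93 and 68 UMIs from group 1 to group 4, had a ratio of 0.428 ± 0.159, and of 0.788 ± 0.382 without cells that met another gate.

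Of 5958 genes with at least 20 CPM in LEC of each library, 5.12% had a mean log2 ratio, computed on CPM + 1, above that of 1.5-fold and 3.47% below that of its inverse. The median log2 ratio was -0.22. Nts, Nppc and Stc1 were 3 of those 5.12%, and Ece1 was near the median. The members were chosen with their level by Fos share known, so their place among these genes is a description only. Other immediate early genes also differed, with mean ratios of 32.3 for Fosb, 20.8 for Egr1, 12.2 for Jun and 30.5 for Atf3. Group 1 was shallower, with median depths of 7210, 6371 and 5970.5 UMIs, against 8539.5, 7588.5 and 7064.5 UMIs in group 4. Its median mitochondrial shares were 2.23%, 1.98% and 2.05%, against 1.70%, 1.56% and 1.64%. With cells thinned to 3000 UMIs, the ratios of group 4 to group 1 were 7.05 ± 2.36 for Nts, 2.51 ± 0.412 for Nppc and 2.01 ± 0.453 for Stc1. Beyond this, the part of depth and mitochondrial share in these differences was not tested. The lymphatic genes Lyve1 and Ccl21a had ratios of 1.04 ± 0.0401 and 0.894 ± 0.0118.

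**Figure D3:**
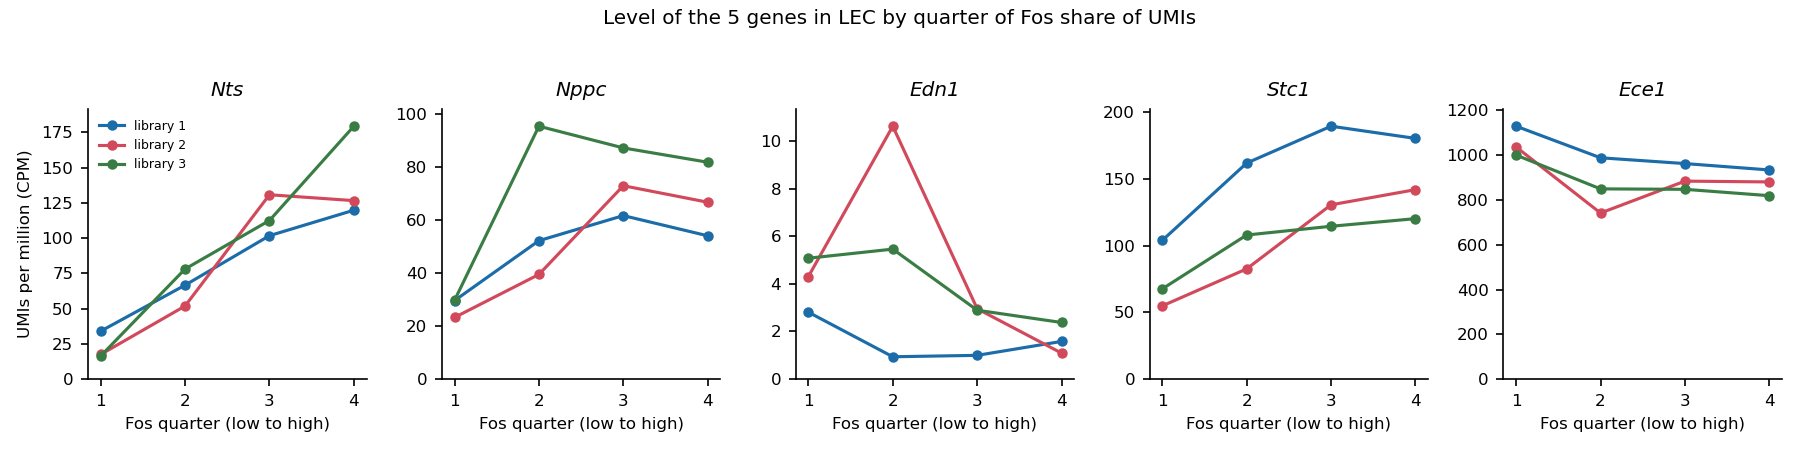
Level of each gene in LEC (vertical axis, CPM, linear) in 4 equal groups of cells by Fos share of UMIs, low to high, for libraries 1, 2 and 3 (lines). Nts was higher in the highest than in the lowest Fos group in each library, Nppc and Stc1 likewise but less, and Ece1 was slightly lower.

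LEC were split by detection of Itih5, a hyaluronan-binding protein gene, and Clca3a1, a chloride channel regulator gene, here called an axis. Nts, Edn1, Stc1 and Ece1 differed between its sides in every fit run, Nppc in some. Cells thinned to 3000 UMIs were called Itih5-side with Itih5 and no Clca3a1 (1674, 1099 and 2307 cells in libraries 1, 2 and 3). They were called Clca3a1-side with Clca3a1 and no Itih5 (690, 753 and 898 cells). The rest of the 5531, 4874 and 8089 thinned LEC, with both genes or neither, were left out, and no axis was fitted to the cells. UMIs summed per library and side were tested with edgeR, with the library as a block, over 10762 genes. Nts, Edn1 and Ece1 were lower on the Itih5 side and Stc1 was higher, while Nppc was lower in edgeR but not in DESeq2 or without the library block. In edgeR all 5 members, Nppc among them, passed the adjusted threshold of 0.05, against 18.0% of all genes tested (9.04% higher and 8.95% lower on the Itih5 side). The axis was not used to choose the members. They were, however, chosen by other values within LEC and with earlier results of these data known. The 5 calls beside 18.0% are therefore a description and no independent support.

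Nts had 55.2, 47.3 and 49.4 CPM in Itih5-side cells of libraries 1, 2 and 3, against 99.03, 153 and 153 CPM in Clca3a1-side cells. The sides did not overlap, and the log2 fold change was -1.46 ± 0.12 (SE; edgeR adjusted p = 1.12e-08). Stc1 had 167, 124 and 119 CPM in Itih5-side cells and 91.8, 70.8 and 59.4 CPM in Clca3a1-side cells, again without overlap. Its log2 fold change was 0.84 ± 0.08 (edgeR adjusted p = 7.30e-08). Nts and Stc1 thus lay on opposite sides of the axis.

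Ece1 had 912, 871 and 851 CPM on the Itih5 side and 1225, 1089 and 968 CPM on the Clca3a1 side, a log2 fold change of -0.36 ± 0.05 (edgeR adjusted p = 1.34e-05). Edn1 had 24 UMIs in all on the Itih5 side and 49 on the Clca3a1 side, with 0.597, 1.52 and 2.31 CPM against 3.86, 10.6 and 6.31 CPM. Its log2 fold change was -2.12 ± 0.38 (edgeR adjusted p = 3.56e-04), and -0.76 with all UMIs of the cells (adjusted p = 0.0462). Nppc had 57.3, 47.3 and 61.8 CPM on the Itih5 side and 58.0, 77.5 and 119.9 CPM on the Clca3a1 side, so that library 1 showed nearly equal levels. Its log2 fold change of -0.68 ± 0.12 passed in edgeR (adjusted p = 4.28e-04) but not in DESeq2 (adjusted p = 0.260) or without the library block (adjusted p = 0.0727).

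Mean Fos was 4905 ± 881 CPM on the Itih5 side and 4835 ± 803 CPM on the Clca3a1 side, but the libraries differed in how cells lay over the Fos groups. From group 1 to group 4, the Itih5 side went from 422 to 420 cells in library 1, 286 to 261 in library 2 and 672 to 467 in library 3. The Clca3a1 side went from 217 to 157, 192 to 167 and 239 to 218 cells. The near-equal means of Fos thus do not show that the sides were alike in each library. In thinned cells split by both measures, Nts had 21.2 ± 11.9 CPM on the Itih5 side and 20.2 ± 5.65 CPM on the Clca3a1 side in Fos group 1. In group 4 it had 86.6 ± 13.6 CPM on the Itih5 side and 229 ± 34.3 CPM on the Clca3a1 side. On the Clca3a1 side Nts also had 220 ± 52.4 CPM in group 3, and in library 2 group 3 was above group 4 (280 against 248 CPM). The highest means of Nts thus lay on the Clca3a1 side in groups 3 and 4. In group 1 the libraries disagreed. Nts had 33.2 CPM on the Itih5 side and 18.4 CPM on the Clca3a1 side in library 1, and library 2 went the same way. Library 3 went the other way, at 9.42 and 26.5 CPM, so the near-equal means of group 1 do not show that the sides were alike. Stc1 had 78.6 ± 27.6 and 52.0 ± 17.5 CPM on the Itih5 and Clca3a1 sides in group 1, and 159 ± 17.8 and 95.3 ± 24.1 CPM in group 4. This split was added after the first values had been seen and was not tested.

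LEC with Ptgs2, the inducible prostaglandin synthase, had more Stc1 and less Ece1. The 164, 75 and 101 Ptgs2-positive thinned cells were set against 5367, 4799 and 7988 Ptgs2-negative cells, over 12388 genes. Of the 5 members, 1 was higher (background 3.80%) and 1 lower (background 2.20%), with 6.01% of all genes called. Stc1 had 335, 227 and 178 CPM in Ptgs2-positive LEC, against 149, 109 and 99.7 CPM in Ptgs2-negative LEC. Every Ptgs2-positive value was above every Ptgs2-negative one, with a log2 fold change of 1.06 ± 0.11 (edgeR adjusted p = 1.82e-18). Ece1 had 789, 702 and 673 CPM in Ptgs2-positive LEC and 1025, 956 and 896 CPM in Ptgs2-negative LEC, a log2 fold change of -0.41 ± 0.07 (edgeR adjusted p = 1.64e-07).

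Nts had 112, 129 and 102.3 CPM in Ptgs2-positive LEC and 81.9, 83.4 and 97.9 CPM in Ptgs2-negative LEC. Its log2 fold change of 0.37 ± 0.15 did not pass (edgeR adjusted p = 0.155), although the difference had the same sign in 3 of 3 libraries. Nppc had 26.4, 84.4 and 42.9 CPM in Ptgs2-positive LEC and 52.0, 59.4 and 79.3 CPM in Ptgs2-negative LEC. Its libraries disagreed (log2 fold change -0.48 ± 0.22, edgeR adjusted p = 0.227), and without library 2 the value was -0.91 (adjusted p = 0.0151). Edn1 had 0 UMIs in the 340 Ptgs2-positive LEC, which allows up to 2.94 CPM, and 1.74, 3.61 and 3.09 CPM in Ptgs2-negative LEC. Ptgs2-positive LEC also had more Fos, 6283 ± 562 against 5123 ± 829 CPM, and its part in the Stc1 difference was not tested. Without the library block, Stc1 (adjusted p = 0.0506) and Ece1 (adjusted p = 0.117) did not pass. Of the called genes 63.3% were higher in Ptgs2-positive LEC, 74.9% with DESeq2 size factors and 87.0% in DESeq2.

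Proliferating LEC had less Ece1 and less Nppc. They were the 75, 74 and 76 thinned cells with at least 2 UMIs over Mki67, Top2a, Birc5 and Cenpf, against 5361, 4674 and 7899 cells with none, over 12312 genes. Of the 5 members, 2 were lower (background 10.4%) and none was higher (background 9.43%), with 19.8% of all genes called. Of the called genes 47.5% were higher in proliferating LEC, 56.7% with DESeq2 size factors and 63.7% in DESeq2. Ece1 had 662, 477 and 535 CPM in proliferating LEC, against 1026, 963 and 897 CPM in other LEC. The groups did not overlap (log2 fold change -0.97 ± 0.10, edgeR adjusted p = 1.74e-20). Nppc had 31.1, 27.0 and 43.9 CPM in proliferating LEC, from 23 UMIs, against 50.9, 59.8 and 78.8 CPM in other LEC. Its log2 fold change was -1.07 ± 0.28 (edgeR adjusted p = 1.39e-03), and it did not pass in DESeq2 (adjusted p = 0.0789) or without the library block (adjusted p = 0.0797).

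Nts had 48.9, 103.6 and 61.4 CPM in proliferating LEC and 82.1, 81.7 and 98.8 CPM in other LEC, and library 2 went the other way. It did not pass (log2 fold change -0.48 ± 0.21, edgeR adjusted p = 0.102), but without library 2 it was -0.87 (adjusted p = 0.0169). Stc1 had 169, 81.1 and 118 CPM in proliferating LEC and 154, 110.04 and 101 CPM in other LEC, with a log2 fold change of -0.17 ± 0.18 (edgeR adjusted p = 0.596). Edn1 had 1 UMI in proliferating LEC, in library 2, and 1.31, 3.57 and 3.12 CPM in other LEC. Proliferating cells were deeper before thinning, with medians of 12525, 13665 and 12960 UMIs against 8221, 7259 and 6828. They also had less Fos, 2602 ± 635 against 5183 ± 830 CPM.

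**Figure D4:**
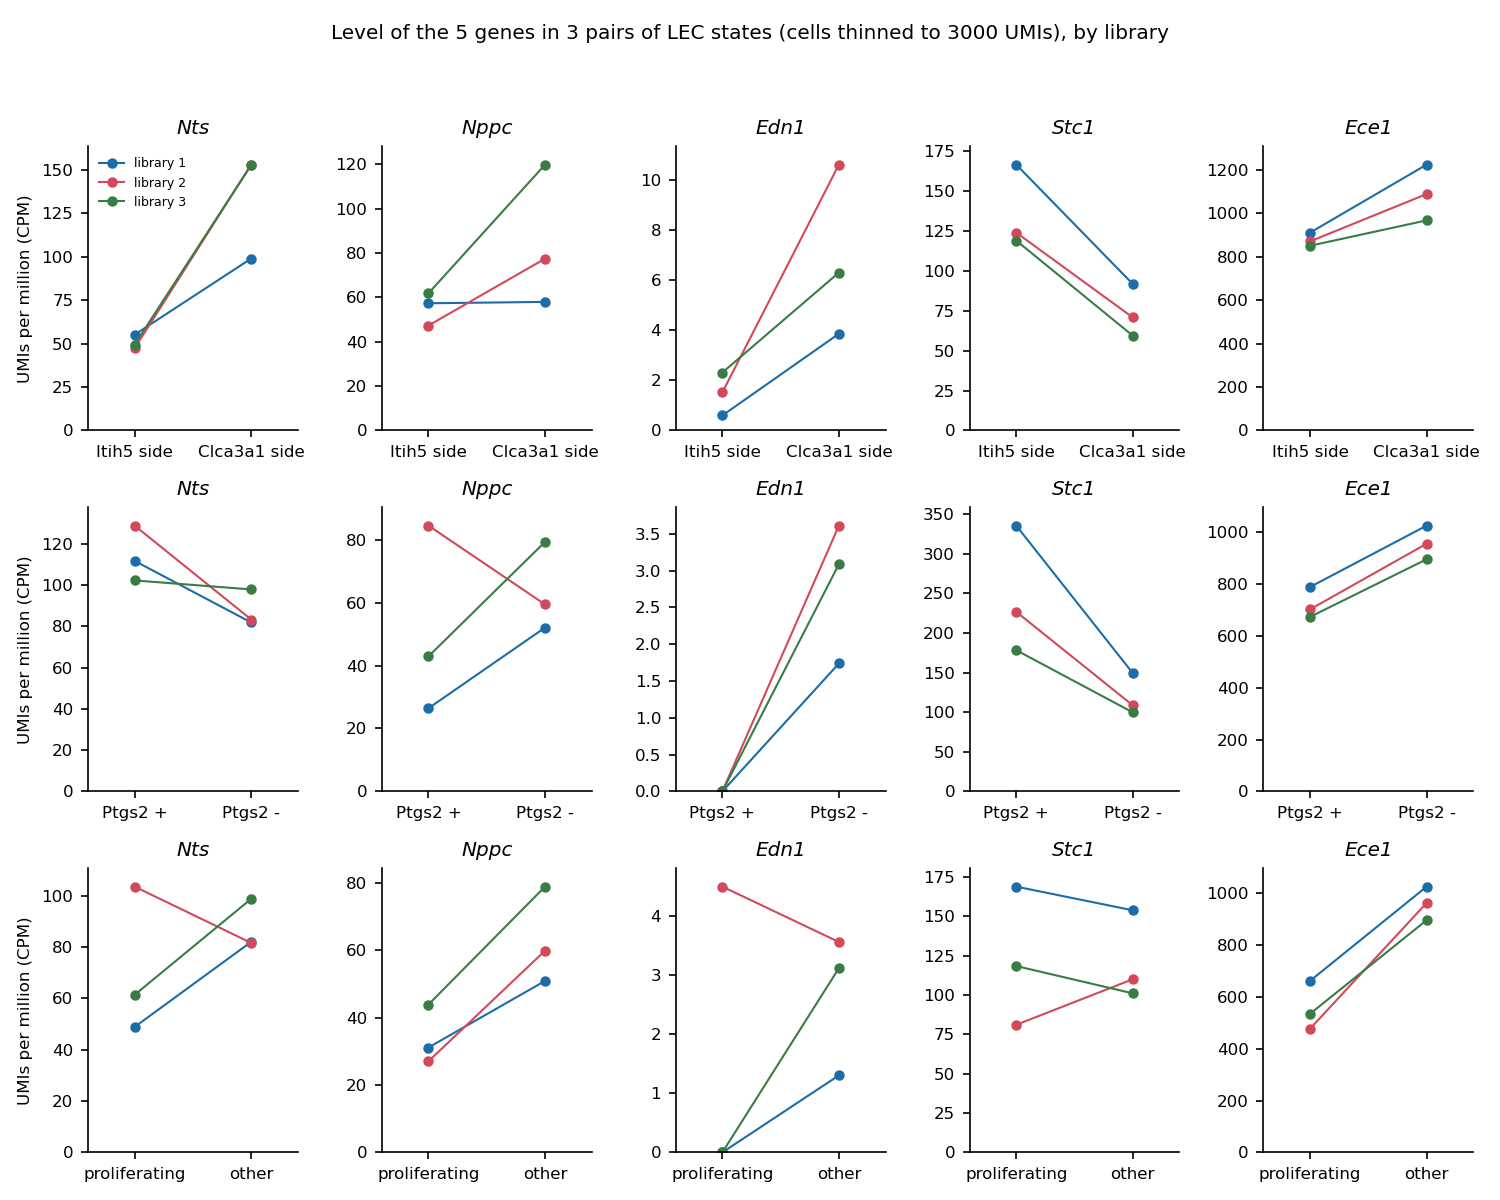
Level of each gene (vertical axis, CPM, linear) in Itih5-side and Clca3a1-side LEC (top row), Ptgs2-positive and Ptgs2-negative LEC (middle row) and proliferating and other LEC (bottom row), with libraries 1, 2 and 3 as lines. All 3 libraries slope the same way for every gene in the top row, for every gene but Nppc in the middle row, and for Nppc and Ece1 in the bottom row.

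Among the 4 classes with values in each library, the endothelin receptors were highest in fibroblasts, while the natriuretic peptide receptor Npr1 was found in both endothelial classes. Ednrb, which binds endothelins, had 405, 463 and 329 CPM in fibroblasts, or 399 ± 67.3 CPM, 68.7 ± 22.9 CPM in LEC and 117 ± 96.0 CPM in BEC. Ednra, the other endothelin receptor, had 107 ± 13.4 CPM in fibroblasts, 0.914 ± 0.774 CPM in LEC and 15.1 ± 9.93 CPM in BEC. Mural or smooth muscle cells had pooled levels of 68.0 CPM for Ednrb and 12.3 CPM for Ednra, and the 19 glia or neurons had 138 CPM for Ednrb on 17 UMIs and 8.10 CPM for Ednra on 1 UMI. Npr1, a guanylyl cyclase for atrial and B-type natriuretic peptides, had 103 ± 9.81 CPM in LEC and 83.9 ± 27.3 CPM in BEC, with overlapping ranges. Npr2, the receptor of the Nppc product, had 19.7, 18.3 and 16.5 CPM in LEC, 39.6, 3.96 and 5.48 CPM in BEC and 22.6 ± 2.66 CPM in fibroblasts. The clearance receptor Npr3 had 12.4 ± 0.987 CPM in LEC and 22.8 ± 17.2 CPM in BEC.

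Of the neurotensin receptors, Ntsr1 had 3 UMIs in all LEC and 18 in fibroblasts, all of them in library 2, and Ntsr2 was listed at 0 in LEC. Sort1, a sorting receptor that also binds neurotensin, had 53.5 ± 3.74 CPM in epithelial cells, 7.70 ± 2.53 CPM in LEC and 10.8 ± 9.70 CPM in BEC.

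**Figure D5:**
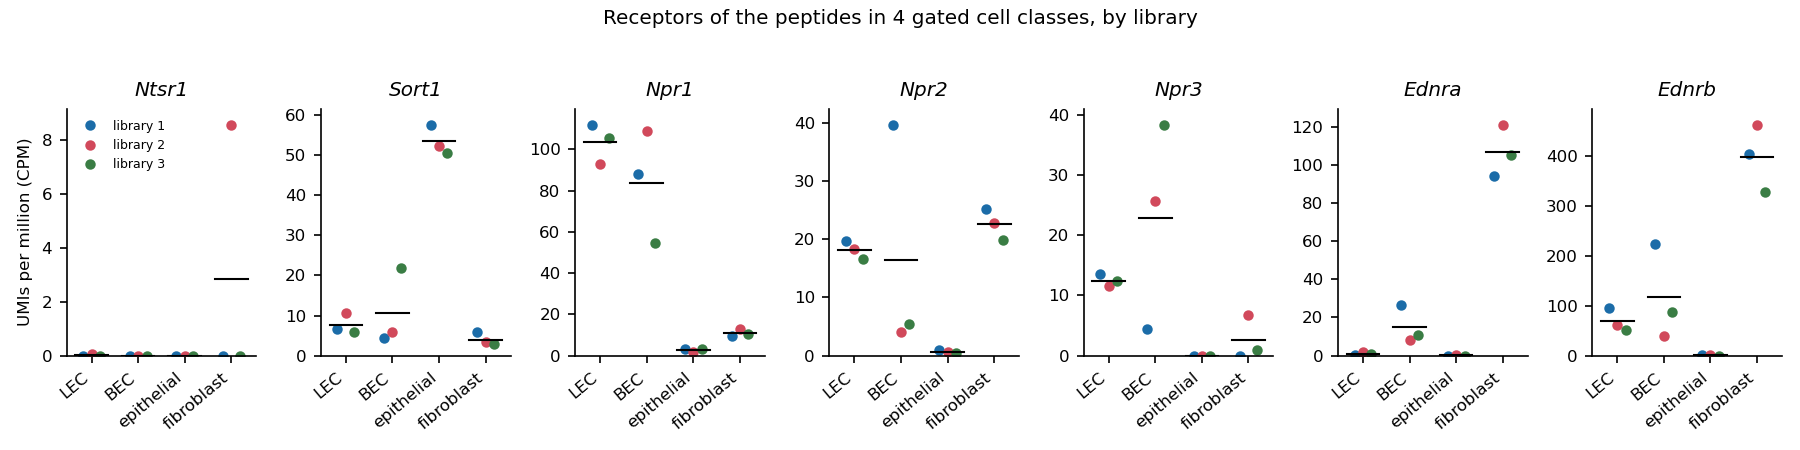
Level of 7 receptor genes (vertical axis, CPM, linear and different for each gene) in LEC, BEC, epithelial cells and fibroblasts of libraries 1, 2 and 3 (points), with the mean as a line. Of these 4 classes, the endothelin receptors stand highest in fibroblasts, Npr1 in both endothelial classes and Sort1 in epithelial cells.

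A further 47 genes, in 5 lists of peptide pathways, were counted between LEC and BEC. Of the 28 that were tested, 6 were higher in LEC (background 11.1%), 4 were higher in BEC (background 9.07%) and 18 did not pass, with 20.2% of all 13925 genes called. Among those that did not pass, Edn2, Prkg2, Sorl1, Pcsk1n and Scg5 had 0 UMIs in BEC and pooled levels of 0.467 to 1.78 CPM in LEC. That is below the 3.28 CPM that 3 UMIs over all BEC would give, so the test could not decide for them. Of the called genes 55.1% were higher in LEC, and 40.8% in DESeq2. The median log2 fold change of the 28 was 0.67, or 0.09 with the 7 genes at 0 UMIs in BEC set at their bounds, beside 0.23 for all genes tested. In the stanniocalcin and pappalysin list 3 of 4 tested genes passed. For Pappa and Stc2 this rests on 0 UMIs in 136 BEC, so both were tested only through their level in LEC and the count says nothing of the list as a whole. Pappa, the protease that stanniocalcins inhibit, had 49.5, 45.04 and 46.4 CPM in LEC and 0 UMIs in BEC, at least 14.3-fold higher in LEC (edgeR adjusted p = 7.43e-09). Stc2, the paralog of Stc1, had 13.6 ± 1.10 CPM in LEC and 0 UMIs in BEC, at least 4.18-fold higher (edgeR adjusted p = 9.59e-04). Igfbp5, a binding protein of insulin-like growth factors that pappalysins can cut, had 776 ± 78.8 CPM in LEC and 77.5 ± 91.6 CPM in BEC (log2 fold change 3.32 ± 0.28, edgeR adjusted p = 7.57e-13).

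Of the processing genes, the proprotein convertase Pcsk6 had 264 ± 18.5 CPM in LEC and 9.58 ± 6.19 CPM in BEC (log2 fold change 4.86 ± 0.31, edgeR adjusted p = 9.45e-17). Pcsk5, a related convertase, had 4.13 ± 3.69 CPM in LEC and 40.9 ± 22.0 CPM in BEC (log2 fold change -3.43 ± 0.54, edgeR adjusted p = 2.24e-06). The carboxypeptidase Cpe was higher in LEC, at 33.4 ± 9.42 CPM against 5.42 ± 6.00 CPM in BEC (edgeR adjusted p = 3.17e-04, and 0.0520 with cells thinned to 3000 UMIs). The amidating enzyme Pam passed in edgeR (adjusted p = 0.0489) but not without library 1 (0.292) or library 3 (0.494). Furin, which cuts the Nppc precursor, was lower in LEC, at 33.5 ± 1.58 CPM against 73.8 ± 2.20 CPM in BEC (log2 fold change -1.15 ± 0.25, edgeR adjusted p = 4.96e-04, and 0.0631 with thinned cells). Ace, a peptidase that also cleaves neurotensin, had 11.1 ± 5.21 CPM in LEC and 462 ± 21.6 CPM in BEC (log2 fold change -5.44 ± 0.21, edgeR adjusted p = 3.30e-24). Ednra was lower in LEC (edgeR adjusted p = 3.07e-03, and 0.243 without library 1). The secretory granule genes Chga, Chgb, Scg2, Scg3, Pcsk1 and Pcsk2 had 12 to 82 UMIs each in all LEC and 0 in BEC, too few to be tested.

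The same 47 genes were counted between LEC states. Between the Itih5 and Clca3a1 sides 4 of 20 tested genes were higher (background 9.04%) and 4 lower (background 8.95%) on the Itih5 side, with Igfbp5 at 519 ± 70.7 against 1243 ± 289 CPM (log2 fold change -1.30 ± 0.09, edgeR adjusted p = 1.02e-09). Igfbp4, another pappalysin substrate, was the reverse, at 797 ± 40.8 CPM on the Itih5 side and 534 ± 21.04 CPM on the Clca3a1 side (log2 fold change 0.53 ± 0.05, edgeR adjusted p = 3.38e-07). In Ptgs2-positive LEC 1 of 21 was higher (background 3.80%), Ednrb, at 124 ± 23.2 against 65.0 ± 22.1 CPM (edgeR adjusted p = 6.90e-07, and 0.138 without the library block), and 2 were lower (background 2.20%). In proliferating LEC 1 of 22 was higher (background 9.43%) and 7 were lower (background 10.4%), among them Pappa, at 14.9 ± 13.7 against 49.7 ± 1.48 CPM (edgeR adjusted p = 4.66e-06), and Igfbp5, at 206 ± 25.3 against 817 ± 109.8 CPM (edgeR adjusted p = 7.39e-66). The medians of the tested list genes were 0.03, -0.06 and -0.54 in the 3 comparisons on the log2 scale, beside 0.00, -0.06 and -0.09 for all genes.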

How the data were processed

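The authors deposited raw UMI counts, as whole numbers for each gene in each barcode. The submitters' processing notes name Cell Ranger 6.1.2, bcl2fastq 2.2 and the build mm10. The annotation release and strand setting are not given in the sources used here. Total counts were 58857545, 69231794 and 74571090 UMIs in libraries 1, 2 and 3, with medians of 7979, 7264 and 6698 UMIs per kept cell.

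The members, gates and gene lists were chosen with earlier results of these data known. Of the barcodes, 2007 with under 500 genes or over 15% mitochondrial UMIs were removed. Cells outside the LEC gate were assigned by marker gates. Epithelial cells were gated on at least 3 UMIs of Epcam and under 3 of Chga. Enteroendocrine cells were gated on Epcam with at least 3 UMIs of Chga, and fibroblasts on collagen genes with Pdgfra or Pdgfrb. Cells that met more than 1 of these gates (203) or none (1724) were left out. No doublet caller was run, and LEC that met another gate were left out as an alternative. Classes with at least 20 cells in each library got a mean and SD, and the others a pooled level. Intervals are exact at 95% (Poisson for levels, conditional binomial for ratios of counts) and cover counting error only. The floor for 0 UMIs was 3 UMIs over the group.

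Sums per library and class or state were tested with the quasi-likelihood test of edgeR 4.0.16 (R 4.3.3, TMM scaling, low genes dropped by filterByExpr) and Benjamini-Hochberg adjustment over all genes except those of the gates or states. State cells were first thinned to 3000 UMIs, which left out 460 shallower LEC. Standard errors were taken from the fold change and its F statistic. The library was a block, since each library is 1 pool of animals that gave both of its sums. Deviations of same-numbered sums from their group means correlated by 0.0378 to 0.115 between LEC and BEC and by 0.0748 to 0.450 between LEC states. Simulated counts with 200 genes of known change served as a check of the test. Alternatives were DESeq2 1.42.0 and its size factors, no filter on genes or cells, no block, other gates, other depths and leaving out each library. The named genes are the members, the receptors, the list genes past the threshold or of at least 20 CPM, and the genes most like each member, of which 1 is not reported here. Ccl21a, which has more than 1 gene ID, was taken from the first. Sequences and motif windows are from RefSeq, gene positions from GENCODE M21, and numerical work used Python 3.11.15.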

Additional observations from a re-analysis of the deposited data

How the results depend on the processing

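The levels of the 5 members in LEC moved by less than 1 SD under each alternative run. Of the Fos ratios, Edn1 was 0.788 without cells of another gate and 0.756 with cells thinned to 3000 UMIs, and Ece1 was 0.807 without cells of another gate, 0.876 with 3 Fos groups and 0.793 thinned, on the same side of 1. Of the ratios of observed to expected pairs, Nts with Nppc was 1.06 at 5000 UMIs, Nts with Stc1 1.08 with the stricter gate, 1.09 with all UMIs and 1.01 at 5000 UMIs, Nppc with Ece1 1.00 with all UMIs and at 5000, and Edn1 with Stc1 0.695 with all UMIs. Genes called between LEC and BEC numbered 2813, and 2000 to 2287 without 1 library. Between the Itih5 and Clca3a1 sides 1936 were called, 760 with DESeq2, 865 with no replicate block and 1173 to 1680 without 1 library (1173 without library 2). For Ptgs2 744 were called, 400 with DESeq2, 61 with no replicate block and 379 to 541 without 1 library (379 without library 1, 412 without library 3). For proliferation 2442 were called, 1462 with DESeq2, 5331 with all UMIs and 1326 to 1866 without 1 library (1326 without library 1). Reversals among the members were in the proliferating comparison, Stc1 at -0.297 to 0.0170 without 1 library (0.0170 without library 2, adjusted p = 0.978) and Edn1 at 2.61 with all UMIs (adjusted p = 0.000160). With all UMIs, Nts (adjusted p = 0.0112) and Stc1 (adjusted p = 0.0252) were also lower in proliferating LEC. The cause of these changes was not tested. The block changed 4 calls of the members, those given beside Nppc, Stc1 and Ece1, and no other call of theirs. With DESeq2 size factors in edgeR each member kept its side of the threshold in each comparison. Cell number limits BEC (136 cells) and the enteroendocrine class (31 cells), and few UMIs limit Edn1 in LEC.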

Other observations

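A few genes were set side by side in epithelial cells with and without Edn1, with no test. After thinning to 3000 UMIs, 78 epithelial cells with Edn1 were set beside 442 without it, and the genes named here were chosen after their values had been seen. The proliferation gene Mki67 had 336 ± 70.5 CPM with Edn1 and 84.3 ± 56.1 CPM without it, the crypt gene Olfm4 1229.9 ± 318 and 373 ± 95.2 CPM, and the chloride cotransporter Slc12a2 379.9 ± 78.2 and 59.5 ± 15.8 CPM. The crypt genes did not all go the same way. The Paneth cell lysozyme Lyz1 had 59.8 ± 87.1 CPM with Edn1 and 492 ± 513 CPM without it. The stem cell gene Lgr5 had 15.8 ± 14.3 and 10.7 ± 12.3 CPM, a difference smaller than either SD. The fatty acid binding protein Fabp2, a gene of absorptive cells, had 656 ± 706 CPM with Edn1 and 4827 ± 299.6 CPM without it. The goblet cell mucin Muc2 had 18.5 ± 32.1 and 767 ± 416 CPM. These cells are the ones left after the epithelium had been stripped, and they passed a sort for CD31 and podoplanin, so their makeup is not that of the epithelium as a whole.

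Edn2, an endothelin gene, was also epithelial, at 61.2, 57.2 and 39.0 CPM in epithelial cells of libraries 1, 2 and 3, against 0.404, 5.17 and 0.562 CPM in LEC and 0 UMIs in BEC. Edn3, another endothelin gene, had 9.11 ± 3.22 CPM in epithelial cells, 10.1 ± 2.10 CPM in fibroblasts and 0.564 ± 0.186 CPM in LEC. Edn2 and Edn3 were thus scarce in LEC and not detected in BEC at this depth.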
